A study of Mus musculus with 4 samples.

Results

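The cornified envelope genes of the mouse are described here in Langerhans cell preparations from inflamed and control ears. They were taken by name as the 49 genes whose symbol begins with Sprr or Lce followed by a digit, or is Flg, Flg2, Hrnr, Rptn, Lor, Ivl, Tchh, Crnn, Cdsn, Tgm1 or Tgm3. These are 49 of the 55487 genes in the count table, each with a single row. RNA-seq libraries of total RNA were made from Langerhans cells, the antigen-presenting cells of the epidermis, of wild-type mouse ears. Imiquimod, a Toll-like receptor 7 agonist that inflames skin, was given in 2 of the libraries (imiquimod 1 and 2), and the control was Vaseline in the other 2 (Vaseline 1 and 2). The labels give no age, sex, strain background, dose, length of treatment, sorting scheme or pooling, and they do not tie the libraries to separate mice. The p-values therefore measure only the spread between these libraries, which may be technical. Codes in the sample descriptions begin with the same letters for both Vaseline libraries and with other letters for each imiquimod library. No label says what these letters stand for. A batch that they might mark and the treatment cannot be told apart.

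The cornified envelope is the protein shell that replaces the plasma membrane of keratinocytes as they die at the surface of the epidermis. Small proline-rich (Sprr), late cornified envelope (Lce), loricrin and involucrin proteins are crosslinked to each other by transglutaminases, while the S100-fused proteins such as filaggrin bundle keratin and later yield natural moisturising factor. Most of these genes sit side by side in the epidermal differentiation complex, and in inflamed or wounded epidermis several Sprr and Lce3 genes are known to be induced. Langerhans cells lie among keratinocytes and do not form an envelope themselves.

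Of the 49 genes, 46 lay on chromosome 3 (GRCm38), between 92080271 and 93449077, a span of 1368.8 kb. The 13 Sprr2 genes filled 218.1 kb of it, and the 21 Lce genes 399.0 kb. The other 3 were Tgm3 on chromosome 2, Tgm1 on chromosome 14 and Cdsn on chromosome 17. In GENCODE, Sprr2c-ps is a processed pseudogene and Sprr2g a polymorphic pseudogene.

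The libraries held 14902782 and 20690182 counts in imiquimod 1 and 2, against 41998172 and 76028955 in Vaseline 1 and 2. Envelope genes took 8378 and 15236 of those counts with imiquimod and 14832 and 21356 with Vaseline, or 562.2 and 736.4 CPM (counts scaled to the library total) against 353.2 and 280.9 CPM. With the TMM factors used for single genes the same sums were 534.1 and 442.7 CPM with imiquimod and 369.6 and 469.9 CPM with Vaseline, and the groups overlapped. Libraries of a group differed by far more than counting error, with a chi-square per degree of freedom of 80 for imiquimod and 85.8 for Vaseline. A background of reads was measured over 2003 olfactory and vomeronasal receptor genes, whose main site of use is the nose. It came to 0.504 and 1.23 CPM per exonic kilobase in imiquimod 1 and 2, against 0.365 and 0.0861 in Vaseline 1 and 2. The langerin gene Cd207, the defining Langerhans cell marker, had 1200 and 575 TMM-normalised CPM with imiquimod and 2250 and 6880 with Vaseline. The basal keratinocyte gene Krt14 had 6500 and 1730 CPM with imiquimod and 5560 and 7510 with Vaseline. Both cell types were thus represented in every library. In bulk RNA such as this, fewer cells of a type and less RNA per cell cannot be told apart.

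Of the 49 genes, 22 had higher levels in both imiquimod libraries than in either Vaseline library, against 30.5% of all genes tested. Among the 22 were Sprr2d, Sprr2e, Sprr2f, Sprr2h, corneodesmosin and transglutaminase 1. These are named first because a DESeq2 fit chosen after the data were seen, given below, called them. The Sprr2a and Sprr1 genes, involucrin, Tgm3 and filaggrin showed no such separation above Vaseline. No envelope gene passed an adjusted p of 0.05 in either direction by the edgeR quasi-likelihood test over all 39439 genes tested, where 0.0634% of genes were higher and 0.137% lower. Sprr4 and Lce3b did not pass the filter on low counts. Before adjustment, 13 of the 47 envelope genes tested had a p under 0.05 with a higher level and 0 with a lower one, against 8.63% of all genes tested that were higher. Of the 13, 5 (Sprr2b, Lce1c, Lce3c, Lce3d and Lce3f) passed the filter on low counts through the imiquimod libraries alone. They thus had to be higher there on library totals, before TMM scaling, so their direction is no separate result. By DESeq2 on the same genes 8 envelope genes were higher and 0 lower at that level. Of all genes 1.17% were higher (462 genes, with 3534 lower). Of the 8, Sprr2b, Lce3c and Lce3f had passed the same filter through the imiquimod libraries alone. None passed adjustment in DESeq2, which left Sprr2d, Sprr2e, Sprr2f and Sprr2h without an adjusted p and gave Cdsn 0.108. The median log2 fold change of the 47 was 1.13, with 40 positive, against 0.41 over all genes tested, of which 60.6% were positive. Both imiquimod libraries lay above both Vaseline libraries in 22 envelope genes, against 30.5% of all genes tested. They lay below them in 1, Sprr2a3, against 20.9%. The 40 and the 22 both include the 6 genes that passed the filter through the imiquimod libraries alone, Lce3a and the 5 named above. In a separate fit, chosen after the data were seen, DESeq2 was run on the 14927 genes at 5 times the background or more on the mean of the 4 libraries. Of 19 envelope genes in it, 6 rose with imiquimod (Sprr2d, Sprr2e, Sprr2f, Sprr2h, Tgm1 and Cdsn), where 0.663% of all genes in that fit were higher. On the same genes edgeR called none in either direction (0 of all genes), and before adjustment 12 envelope genes and 845 of all genes had a p under 0.05 and a higher level. Without Vaseline 1 only Cdsn was still called in DESeq2, and without Vaseline 2 only Sprr2d, Sprr2e, Sprr2f and Sprr2h. Calls over all genes were fewer as well in both of these fits. Without imiquimod 1 or without imiquimod 2 more envelope genes were called, and calls over all genes were also more numerous. Sprr2d, Sprr2e, Sprr2f, Sprr2h and Cdsn were called in both of those fits, and Tgm1 without imiquimod 1 alone. Flg was called as lower without imiquimod 2 (log2 fold change -1.52).

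**Figure D1:**
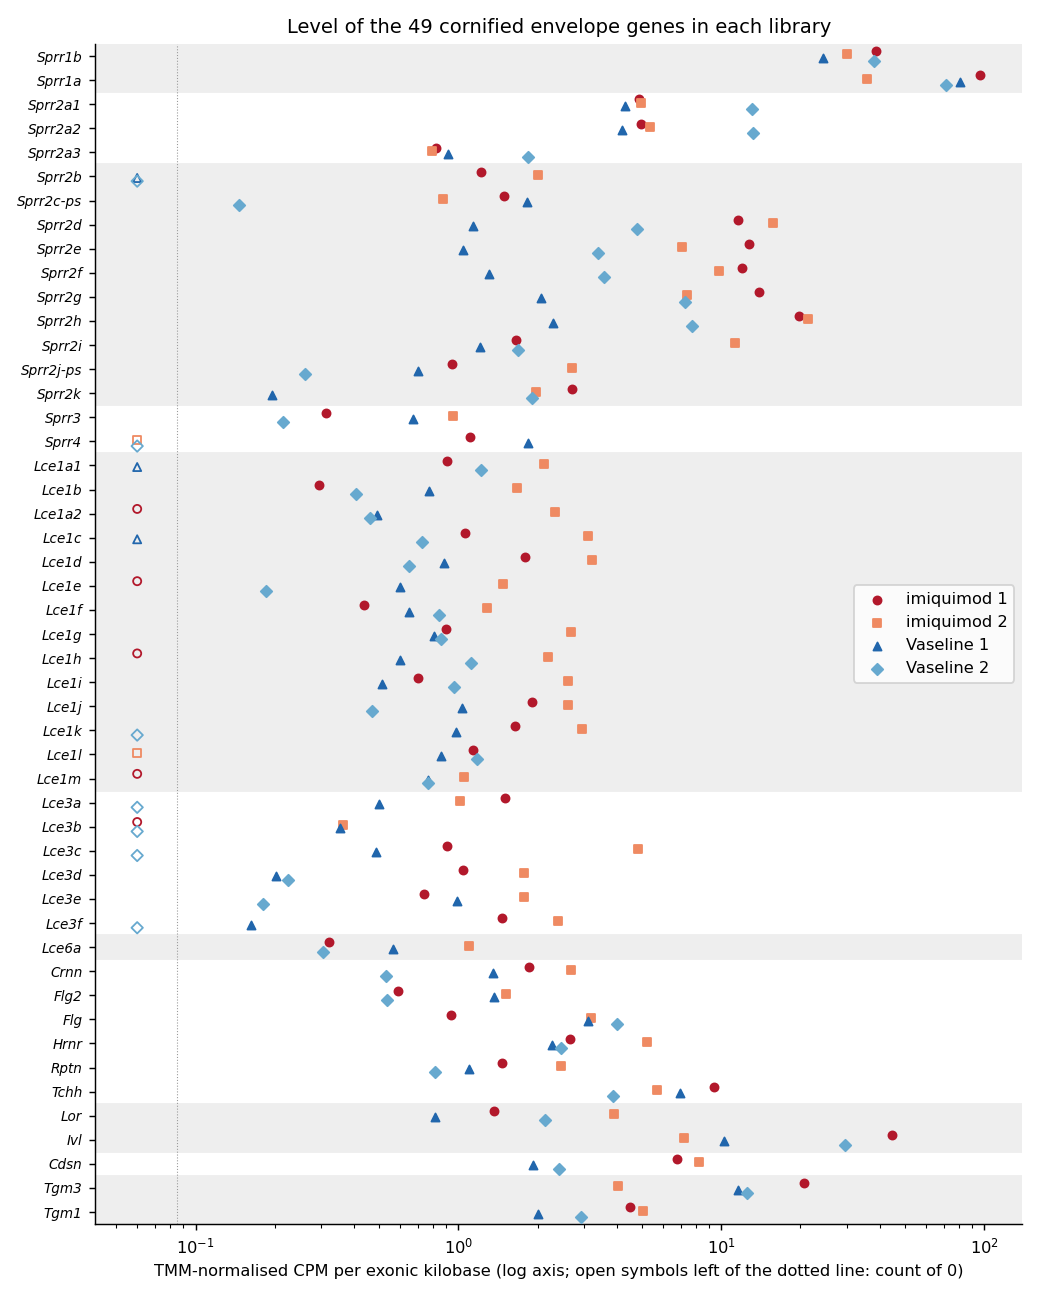
Level of each of the 49 envelope genes in each library, in TMM-normalised CPM per exonic kilobase on a log axis, with genes grouped by family. Sprr2d and Sprr2h show both imiquimod libraries to the right of both Vaseline libraries, at 11.6 and 15.7 against 1.14 and 4.78 for Sprr2d, whereas Sprr1a holds the highest level in every library.

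Sprr proteins are short, proline-rich crossbridges between larger envelope proteins. Sprr2h (ENSMUSG00000046259, chromosome 3, 92385685 to 92387324) had 232 and 549 counts with imiquimod and 69 and 264 with Vaseline. Scaled to effective library totals, this was 14.8 and 16 CPM against 1.72 and 5.81 CPM, a mean of 15.4 ± 0.849 against 3.77 ± 2.89 (SD, n = 2 each). On this scale, which includes the TMM factors, the imiquimod libraries were close together, and the higher Vaseline library stood at less than either of them. The log2 fold change was 2.02 (SE 0.62, edgeR quasi-likelihood adjusted p = 0.136), and 2.91 with an adjusted p of 0.000145 by DESeq2 on genes above background.

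Sprr2d (ENSMUSG00000042212, chromosome 3, 92339140 to 92340873) had 7.92 and 10.7 CPM with imiquimod and 0.774 and 3.26 CPM with Vaseline. Its log2 fold change was 2.20 (SE 0.66, edgeR adjusted p = 0.122; 3.14, DESeq2 adjusted p = 0.000844, among genes above background). Sprr2e, its neighbour, had 8.24 and 4.58 CPM with imiquimod against 0.674 and 2.20 CPM with Vaseline, a log2 fold change of 2.09 (SE 0.70, edgeR adjusted p = 0.199). In Sprr2e the first imiquimod library was the higher, and in Sprr2d the second. Sprr2f, next along the chromosome, had 7.28 and 5.95 CPM with imiquimod and 0.799 and 2.18 CPM with Vaseline, a log2 fold change of 2.12 (SE 0.70, edgeR adjusted p = 0.188). Sprr2e and Sprr2f had log2 fold changes of 2.92 and 2.96 in the DESeq2 fit, with adjusted p of 0.000844 and 0.000215. In each of Sprr2d, Sprr2e, Sprr2f and Sprr2h, Vaseline 1 was the lowest library and Vaseline 2 lay between it and the imiquimod libraries. Their edgeR log2 fold changes moved with the Vaseline library left out. Without Vaseline 1 they were 1.40 for Sprr2d, 1.41 for Sprr2e, 1.48 for Sprr2f and 1.29 for Sprr2h, and without Vaseline 2 they were 3.56, 3.20, 3.01 and 3.13.

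The remaining Sprr2 genes outside the Sprr2a group were more uneven. Sprr2g had 9.07 and 4.82 CPM with imiquimod and 1.35 and 4.75 CPM with Vaseline, so that imiquimod 2 and Vaseline 2 were nearly level (log2 fold change 1.13, SE 0.65, edgeR adjusted p = 0.398). The log2 fold change of Sprr2i, 2.29, rested on imiquimod 2, with 1.02 and 6.98 CPM with imiquimod and 0.749 and 1.03 CPM with Vaseline. Sprr2b had 15 and 54 counts with imiquimod and none in either Vaseline library. Against a floor of 3 counts per Vaseline library, Sprr2b was 18-fold higher on the mean of the imiquimod libraries. That value has no background taken off and is no lower bound. The edgeR adjusted p of Sprr2b, 0.0557, was the smallest of any envelope gene. However, Sprr2b passed the filter on low counts through the imiquimod libraries alone and stood at only 2.55 and 2.71 times the background there. Sprr2k had 1.72 and 1.25 CPM with imiquimod and 0.125 and 1.21 CPM with Vaseline, and Sprr2j-ps 0.639 and 1.84 CPM against 0.474 and 0.176 CPM. The log2 fold change was above 0 in all 10 of these Sprr2 genes, the uneven Sprr2c-ps included, against 60.6% of all genes tested. Its median was 2.10, against 0.41 over all genes tested. In 8 of the 10 both imiquimod libraries exceeded both Vaseline libraries, against 30.5% of all genes tested. Sprr2b is in both counts and, given how it passed the filter, had to be higher on library totals.

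Summed to 1 row, the 10 genes had 816 and 1850 counts with imiquimod and 289 and 939 with Vaseline. That was 52.1 and 54.0 CPM against 7.21 and 20.7 CPM, a log2 fold change of 1.93 (SE 0.64, edgeR adjusted p = 0.189). They made up 9.74% (95% exact binomial interval 9.11 to 10.4) and 12.1% (11.6 to 12.7) of all envelope gene counts with imiquimod. With Vaseline the share was 1.95% (1.73 to 2.18) and 4.40% (4.13 to 4.68). These intervals cover counting error alone, since PCR copies of a molecule could not be recognised.

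Reads of a family can be assigned only where its sequences differ, so coding sequences of the Sprr2 genes are shown. Those of Sprr2d, Sprr2e and Sprr2f, which rose in the DESeq2 fit, are set beside that of Sprr2a1, which was not called. They were read 5′ to 3′ from GENCODE vM21 transcripts on GRCm38, all on the plus strand of chromosome 3, and capitals mark the alignment columns in which the sequences differ or have a gap.
Sprr2d: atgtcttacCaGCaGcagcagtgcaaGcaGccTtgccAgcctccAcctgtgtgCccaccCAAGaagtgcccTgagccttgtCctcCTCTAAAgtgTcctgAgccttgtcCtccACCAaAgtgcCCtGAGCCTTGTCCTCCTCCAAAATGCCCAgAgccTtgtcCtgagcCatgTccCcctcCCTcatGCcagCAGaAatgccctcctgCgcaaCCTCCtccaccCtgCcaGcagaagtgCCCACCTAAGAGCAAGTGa
Sprr2e: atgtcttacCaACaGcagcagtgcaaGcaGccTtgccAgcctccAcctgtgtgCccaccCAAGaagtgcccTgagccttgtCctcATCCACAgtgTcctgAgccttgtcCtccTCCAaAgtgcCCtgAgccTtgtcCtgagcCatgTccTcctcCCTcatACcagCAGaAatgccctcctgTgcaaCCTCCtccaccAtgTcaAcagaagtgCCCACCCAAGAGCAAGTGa
Sprr2f: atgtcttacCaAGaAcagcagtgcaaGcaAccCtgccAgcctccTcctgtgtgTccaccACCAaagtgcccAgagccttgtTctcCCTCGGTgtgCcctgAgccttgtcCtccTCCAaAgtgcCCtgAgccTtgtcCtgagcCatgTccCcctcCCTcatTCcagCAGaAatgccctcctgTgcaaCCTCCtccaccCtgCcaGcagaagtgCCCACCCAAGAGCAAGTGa
Sprr2a1: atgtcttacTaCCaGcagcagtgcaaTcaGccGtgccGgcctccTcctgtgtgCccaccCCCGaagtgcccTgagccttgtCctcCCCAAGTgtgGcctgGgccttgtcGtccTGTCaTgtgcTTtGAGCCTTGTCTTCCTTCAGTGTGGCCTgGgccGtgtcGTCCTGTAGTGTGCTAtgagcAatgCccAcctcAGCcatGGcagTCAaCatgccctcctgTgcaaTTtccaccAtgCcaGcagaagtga
Sprr2d and Sprr2e are identical at 94.8% of 231 aligned coding bases, and Sprr2d and Sprr2f at 89.6%. Sprr2d and Sprr2a1 are identical at 80.2% of 237 aligned bases. The coding sequence of Sprr2a2 is the same as that of Sprr2a1 over all 252 bases.

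How far reads could be shared between paralogs was measured as the percentage of a transcript's 50-base words that also occur in a transcript of another gene. It was 96.3% for Sprr2a1, 96.5% for Sprr2a2 and 61.1% for Sprr2a3, almost all of it with each other. For Sprr2d it was 4.3%, for Sprr2e 10.2% and for Sprr2f 0.7%, and Sprr2g, Sprr2h and Sprr2k shared no word. Sprr2b, at 14.1%, shared its words with the Sprr2a genes, and Sprr2i, at 12.5%, with Sprr2e, Sprr2d and Sprr2c-ps. Of the 49 genes, 23 shared more than 10% of their 50-base words, and 7 shared more than 10% of their 100-base words. How reads that map to several genes were counted is not given in the sources used here, so the split of counts among Sprr2a1, Sprr2a2 and Sprr2a3, and among the Lce genes, is uncertain.

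**Figure D2:**
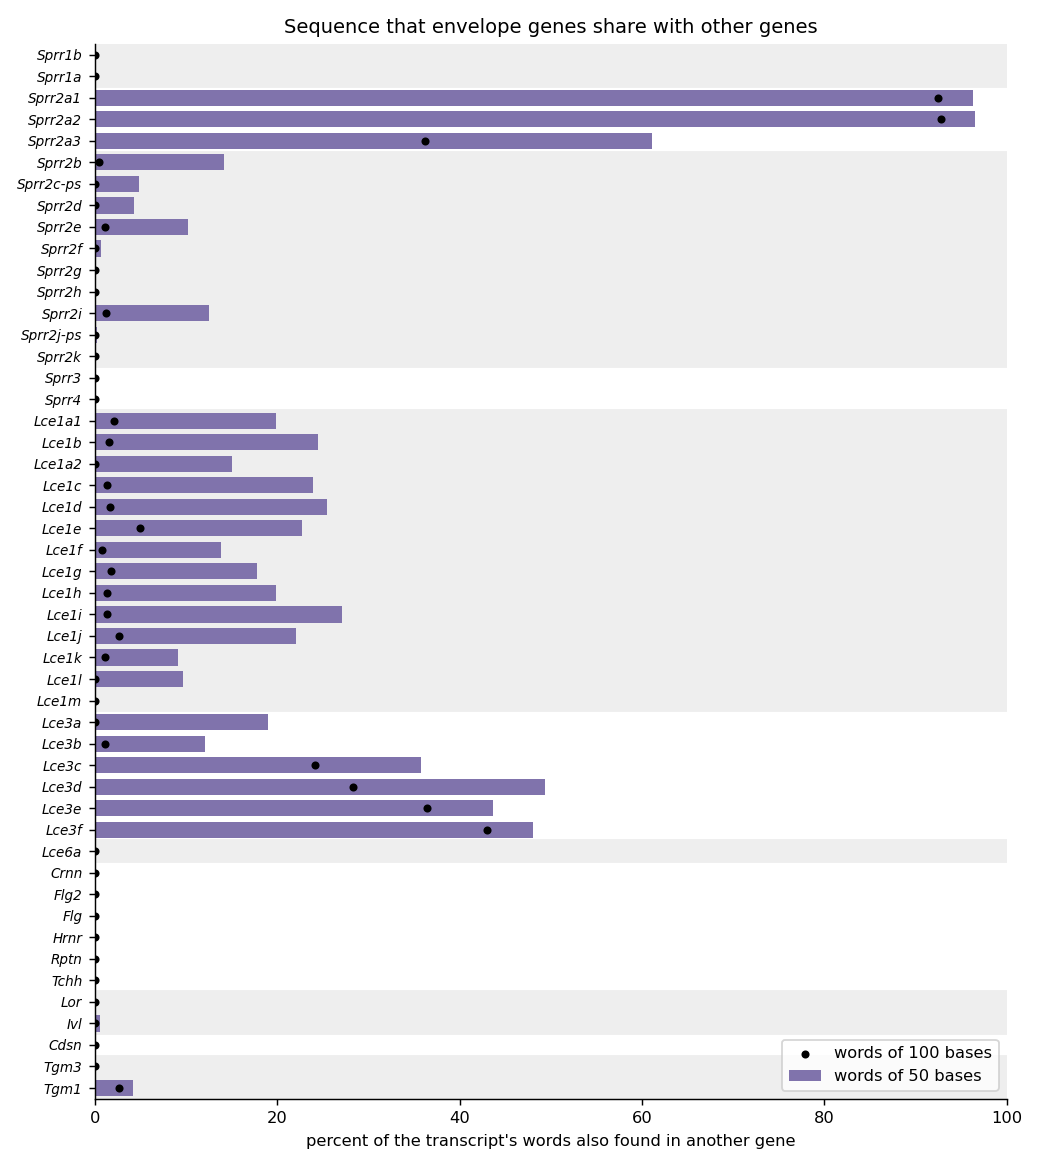
Percentage of the 50-base words (bars) and 100-base words (points) of each envelope gene's transcripts that also occur in another gene. Sprr2a1 and Sprr2a2 reach 96.3% and 96.5% and the Lce3 genes 12.1% to 49.3%, while Sprr2g, Sprr2h and Cdsn stand at 0.

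None of the 3 Sprr2a genes was higher in both imiquimod libraries than in both Vaseline libraries. Sprr2a1 (ENSMUSG00000078664, chromosome 3, 92215799 to 92221911) had 14.6 and 14.9 CPM with imiquimod and 12.9 and 39.4 CPM with Vaseline, a log2 fold change of -0.83 (SE 0.60, edgeR adjusted p = 0.466). Sprr2a2 had 14.4 and 15.5 CPM with imiquimod and 12.2 and 38.4 CPM with Vaseline, and its counts tracked those of Sprr2a1, which were 1.01 and 0.959 times as many with imiquimod and 1.05 and 1.03 times with Vaseline. Sprr2a3 had 2.36 and 2.28 CPM with imiquimod and 2.62 and 5.31 CPM with Vaseline. The negative values of Sprr2a1 and Sprr2a2 rested on Vaseline 2, and without that library their log2 fold changes were 0.16 and 0.26. Among genes above background they were 0.08 and 0.16.

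Because Sprr2a and the other Sprr2 genes sit in the same 218.1 kb, their ratio within a library was taken, which needs no scaling between libraries. Counts of the 10 other Sprr2 genes were 1.66 and 1.65 times those of the Sprr2a genes with imiquimod and 0.260 and 0.249 times with Vaseline, a 6.51-fold difference between the group means. The values within each group were close and the groups did not overlap. The same ratio less the background was 1.81 and 1.88 against 0.196 and 0.241. For Sprr2h alone it was 0.473 and 0.490 with imiquimod and 0.0621 and 0.0699 with Vaseline, for Sprr2d 0.253 and 0.328 against 0.0279 and 0.0392, for Sprr2e 0.263 and 0.140 against 0.0243 and 0.0265, and for Sprr2f 0.232 and 0.182 against 0.0288 and 0.0262. With Sprr1b as the denominator the groups were less far apart, and the Vaseline libraries differed more. The summed counts of Sprr2d to Sprr2h were 1.47 and 1.69 times those of Sprr1b with imiquimod and 0.264 and 0.578 times with Vaseline, a 3.75-fold difference between means, against 6.81-fold over Sprr2a. These ratios were chosen after the levels had been seen. An exact permutation test of 2 against 2 libraries cannot give a two-sided p below 0.333, so none was run.

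**Figure D3:**
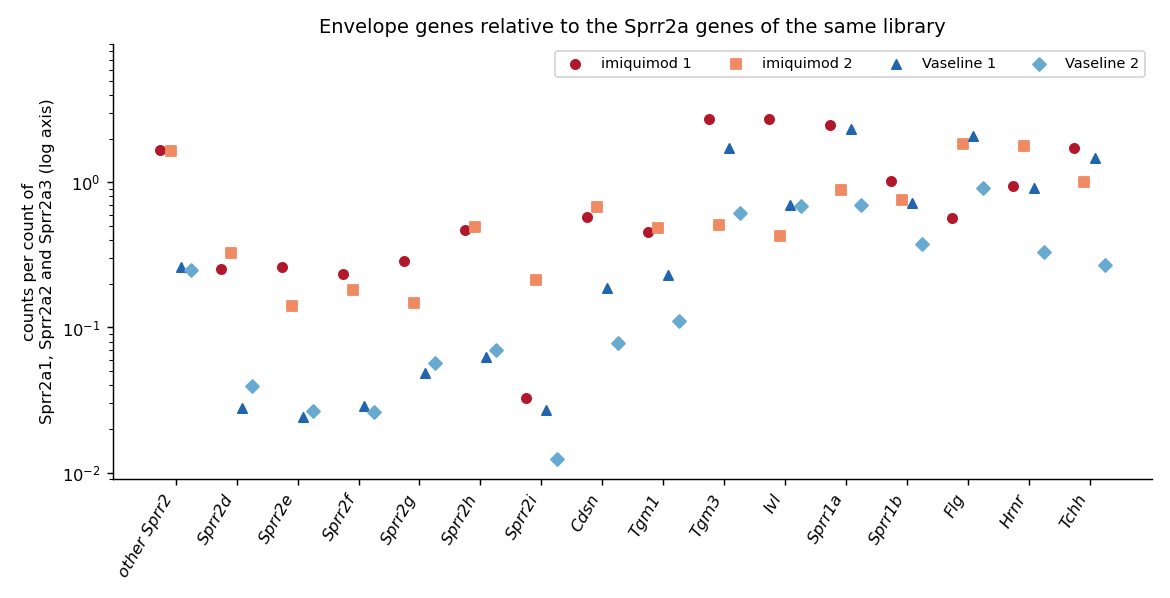
Counts of envelope genes divided by the summed counts of Sprr2a1, Sprr2a2 and Sprr2a3 in the same library, on a log axis. The other Sprr2 genes sit at 1.66 and 1.65 with imiquimod and at 0.260 and 0.249 with Vaseline, while the imiquimod and Vaseline points of Tgm3, Ivl, Sprr1a and Flg overlap.

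Cdsn and Tgm1 were also among the 22 envelope genes in which both imiquimod libraries lay above both Vaseline libraries, against 30.5% of all genes tested. Corneodesmosin, the product of Cdsn (ENSMUSG00000039518, chromosome 17, 35552128 to 35557180), glues corneocytes together until it is cleaved for shedding. Cdsn had 284 and 754 counts with imiquimod and 207 and 293 with Vaseline, or 18.1 and 22.0 CPM against 5.17 and 6.45 CPM. On the TMM scale both groups were tight, at 20.1 ± 2.73 and 5.81 ± 0.908 CPM (SD, n = 2 each), and they did not overlap. The closeness of the imiquimod libraries depends on the TMM factors, which were 1.05 and 1.66 for imiquimod 1 and 2. The log2 fold change was 1.79 (SE 0.61, edgeR adjusted p = 0.203), and 2.58 (adjusted p = 3.03e-05) by DESeq2 on genes above background. Relative to the Sprr2a counts of the same library, Cdsn stood at 0.578 and 0.673 with imiquimod and 0.186 and 0.0776 with Vaseline.

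Tgm1 (ENSMUSG00000022218, chromosome 14, 55700009 to 55713926) encodes the membrane-bound transglutaminase that crosslinks the envelope, whose loss causes lamellar ichthyosis in humans. It had 14.2 and 15.9 CPM with imiquimod and 6.36 and 9.27 CPM with Vaseline, again without overlap. Its log2 fold change was 0.95 (SE 0.59, edgeR adjusted p = 0.423), and 1.75 (adjusted p = 0.0178) in the DESeq2 fit. Of its exonic bases, 5.8% are covered by a gene model on the opposite strand, and the strand setting of the counting is not given in the sources used here. The soluble enzyme Tgm3, which also crosslinks proteins of the hair follicle, had 85.6 and 16.7 CPM with imiquimod and 48.0 and 51.5 CPM with Vaseline. The imiquimod libraries lay on either side of Vaseline, and the log2 fold change was 0.03 (SE 0.64, edgeR adjusted p = 0.984).

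**Figure D4:**
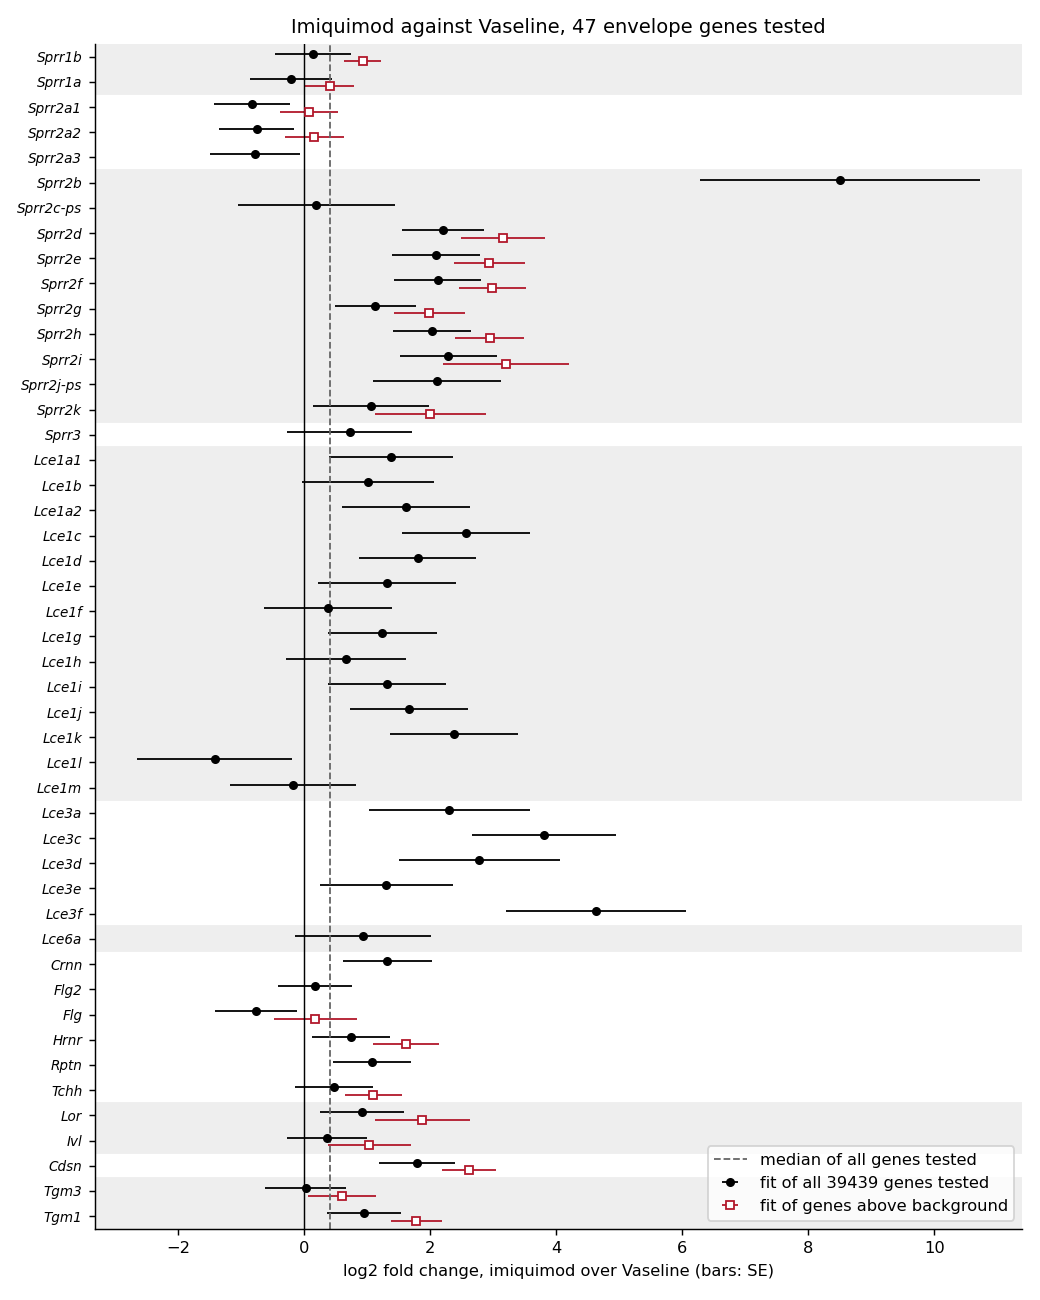
Log2 fold change of imiquimod over Vaseline with its SE for the 47 envelope genes tested, from edgeR on all genes (black points) and on genes above background (open squares). Sprr2d, Sprr2e, Sprr2f, Sprr2h and Cdsn lie between 1.79 and 2.20 in the first fit, whereas the Sprr2a genes lie between -0.83 and -0.76.

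Sprr1a and Sprr1b, which encode longer crossbridge proteins, had the highest or near-highest levels per length of the set. Sprr1a ranked first of 49 in every library by CPM per exonic kilobase, with 96.6 and 35.8 with imiquimod and 80.7 and 71.8 with Vaseline. In CPM, Sprr1a had 77.9 and 28.9 with imiquimod and 65.0 and 57.9 with Vaseline, a log2 fold change of -0.21 (SE 0.66, edgeR adjusted p = 0.860). Sprr1b had 32.3 and 24.9 CPM with imiquimod and 20.1 and 31.5 CPM with Vaseline, a log2 fold change of 0.14 (SE 0.60, edgeR adjusted p = 0.903). The groups of both genes overlapped, so no difference beyond the spread between replicates was found. Sprr3, which is typical of the oesophagus, and Sprr4 reached at most 1.17 CPM in any library.

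By rank, Sprr2h was number 5 and 3 of the 49 in imiquimod 1 and 2 and number 9 and 7 in Vaseline 1 and 2. Sprr2d was number 9 and 4 with imiquimod and 20 and 9 with Vaseline. Sprr2a1 was number 13 and 15 with imiquimod and 6 and 5 with Vaseline. Sprr2h and Sprr2d thus ranked above Sprr2a1 in both imiquimod libraries and below it in both Vaseline libraries, while both Sprr1 genes were among the top 3 in each library.

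Lce proteins are added to the envelope late in differentiation, Lce1 in normal epidermis and Lce3 mainly after barrier damage. The 21 Lce genes were counted at very low levels, with a maximum of 2.74 CPM in any library, and 0 of 21 reached 5 times the background on the mean of the libraries. Among the 14 Lce1 genes 12 had a positive and 2 a negative log2 fold change, with a median of 1.31. Over all genes tested 60.6% were positive and the median was 0.41. Summed, the Lce1 genes had 120 and 732 counts with imiquimod and 263 and 332 with Vaseline, or 7.67 and 21.4 CPM against 6.56 and 7.31 CPM. Imiquimod 2 supplied most of that difference, and it was also the library with the highest background. The largest Lce1 value was that of Lce1c, with 0.767 and 2.25 CPM with imiquimod and 0 and 0.528 CPM with Vaseline (log2 fold change 2.57, edgeR adjusted p = 0.284). Lce1k had 1.09 and 1.96 CPM with imiquimod and 0.649 and 0 CPM with Vaseline (2.38, edgeR adjusted p = 0.312). Lce1d, Lce1g and Lce1j, the other named Lce1 genes, had log2 fold changes of 1.80, 1.24 and 1.66.

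The 6 Lce3 genes together had 50 and 237 counts with imiquimod and 62 and 10 with Vaseline, or 3.19 and 6.92 CPM against 1.55 and 0.220 CPM. The summed log2 fold change was 2.61 (SE 0.76, edgeR adjusted p = 0.109). It was 1.69 without Vaseline 2 and 4.39 without Vaseline 1, where the 10 counts of Vaseline 2 were the only ones left for the control. Relative to the background the sum stood at 1.96 and 2.76 with imiquimod and at 1.19 and 0.451 with Vaseline. Lce3c had 8 and 94 counts with imiquimod and 11 and 0 with Vaseline (log2 fold change 3.81, edgeR adjusted p = 0.126), and Lce3f 14 and 50 against 4 and 0 (4.63, edgeR adjusted p = 0.141). Lce3d had 8 and 30 counts with imiquimod and 4 and 5 with Vaseline (2.78, edgeR adjusted p = 0.338). Lce3c, Lce3d and Lce3f passed the filter through the imiquimod libraries alone. They thus had to be higher there on library totals, and the sign of their fold changes is no separate result. Without 1 library the log2 fold change of Lce3c ranged from 1.97 to 8.73, the higher value without Vaseline 1, where the Vaseline count is 0 and the value is no bound. The part of the background in these few counts was not tested, and Lce3c, Lce3d, Lce3e and Lce3f share 35.7% to 49.3% of their 50-base words.

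The S100-fused genes encode long repeat proteins that join keratin filaments to the envelope. Flg (ENSMUSG00000102439, chromosome 3, 93273523 to 93293686), the filaggrin gene whose human counterpart is mutated in ichthyosis vulgaris, had 17.7 and 60.1 CPM with imiquimod and 58.3 and 75.5 CPM with Vaseline. Imiquimod 1 alone stood apart, and the log2 fold change was -0.77 (SE 0.65, edgeR adjusted p = 0.517), or 0.18 among genes above background. Hrnr, the hornerin gene, had 29.8 and 58.4 CPM with imiquimod and 25.3 and 27.5 CPM with Vaseline (0.75, SE 0.62, edgeR adjusted p = 0.510). Within each library Flg counts were 0.594 and 1.03 times those of Hrnr with imiquimod and 2.31 and 2.74 times with Vaseline, a ratio chosen after its values were seen. Flg2 had 12.3 and 31.6 CPM with imiquimod and 28.5 and 11.1 CPM with Vaseline, with full overlap. Its transcript and those of Flg and Hrnr repeat 65.3%, 79.2% and 69.1% of their own 50-base windows, which can make reads hard to place within the gene.

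Repetin (Rptn) had 6.07 and 10.2 CPM with imiquimod and 4.54 and 3.37 CPM with Vaseline (log2 fold change 1.07, SE 0.62, edgeR adjusted p = 0.402). Cornulin (Crnn) had 3.45 and 5.02 CPM against 2.52 and 0.991 CPM (1.32, SE 0.71, edgeR adjusted p = 0.382). Trichohyalin (Tchh), which is best known from the inner root sheath of the hair, had 54.6 and 33.1 CPM with imiquimod and 40.6 and 22.6 CPM with Vaseline (0.47, edgeR adjusted p = 0.665). Hrnr, Rptn and Crnn were higher in both imiquimod libraries than in both Vaseline libraries, but none of the S100-fused genes reached an unadjusted p of 0.05.

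Loricrin and involucrin differed in level. Lor, which encodes the main protein of the mature envelope, had only 2.43 and 6.98 CPM with imiquimod and 1.45 and 3.79 CPM with Vaseline (log2 fold change 0.91, SE 0.67, edgeR adjusted p = 0.469). Ivl, the early scaffold protein, had 85.5 and 13.9 CPM with imiquimod and 19.5 and 56.8 CPM with Vaseline. The Ivl libraries differed more within each group than between the groups (0.36, SE 0.63, edgeR adjusted p = 0.746), and without imiquimod 1 the value was -1.54. Per exonic kilobase, Lor stood at 1.36 and 3.92 CPM with imiquimod and 0.814 and 2.13 CPM with Vaseline, against 44.5 and 7.21 CPM and 10.2 and 29.5 CPM for Ivl.

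Set against the receptor background of each library, Sprr2d, Sprr2e, Sprr2f and Sprr2h no longer separated by group. Sprr2d stood at 24.2 and 21.2 times the background in imiquimod 1 and 2 and at 2.97 and 33.2 times in Vaseline 1 and 2. Sprr2h stood at 41.1 and 28.8 times with imiquimod and 5.98 and 53.6 times with Vaseline. Cdsn stood at 14.1 and 11.1 times with imiquimod and 5.04 and 16.7 times with Vaseline. On this measure the groups overlapped, and the background of Vaseline 2 was the lowest of the 4 libraries. Of the 49 genes, 19 reached 5 times the background on the mean of the libraries and 12 stayed under 2 times.

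**Figure D5:**
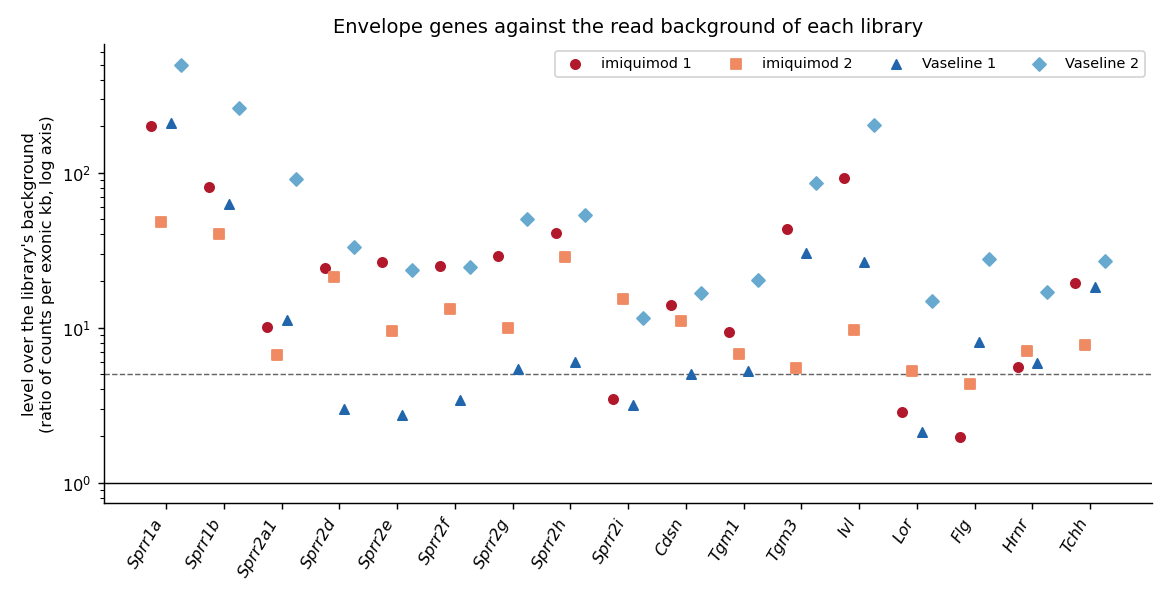
Level of 17 envelope genes as a multiple of the read background of each library, on a log axis, with lines at 1 and 5 times. Vaseline 2 gives the highest point for Sprr2d, at 33.2, with imiquimod 1 and 2 at 24.2 and 21.2 and Vaseline 1 at 2.97.

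Envelope genes were also expressed per unit of keratin message in the same library, since keratin message differed between libraries. The summed level of Krt5 and Krt14, the basal keratins, was 5334 and 1510 CPM per exonic kilobase with imiquimod and 5421 and 7140 with Vaseline. Per 1000 of this sum, Sprr2h stood at 3.70 and 14.1 with imiquimod and 0.422 and 1.08 with Vaseline, and Cdsn at 1.27 and 5.44 against 0.356 and 0.337. In 28 of the 49 genes both imiquimod values exceeded both Vaseline values on this scale, against 44.4% of all genes tested. Relative to the suprabasal keratins Krt1 and Krt10 the count was 38, against 81.4% of all genes tested. Krt1 had 499 and 269 CPM with imiquimod and 921 and 1260 CPM with Vaseline, and Krt10 670 and 242 CPM against 1760 and 1450 CPM. Krt5 had 3590 and 1160 CPM with imiquimod and 4960 and 6310 CPM with Vaseline.

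Of the genes that work with the envelope, few passed the test. Over all genes tested 0.0634% were higher and 0.137% lower, and 60.6% had a positive log2 fold change. The median over all genes was 0.41, or 0.08 in the edgeR fit of genes above background. Of 21 tested partners in the envelope and its junctions, 4 had a positive and 17 a negative log2 fold change, the median being -0.44 (0.10 in the edgeR fit restricted by background), and 0 passed in either direction. Kprp was the 1 gene of the 21 with an unadjusted p under 0.05. Kprp, a keratinocyte proline-rich protein gene of the same chromosomal complex, had the smallest p among them, with 3.26 and 11 CPM with imiquimod and 1.87 and 2.05 CPM with Vaseline (log2 fold change 1.93, edgeR adjusted p = 0.209). Among 16 genes of filaggrin processing and desquamation 8 were positive and 8 negative, the median being -0.13 (0.45 when restricted), and 0 passed. Klk6, a kallikrein protease, had 9.01 and 5.57 CPM with imiquimod and 2.42 and 0.792 CPM with Vaseline (2.17, edgeR adjusted p = 0.167). Of 21 barrier lipid genes 9 were positive and 12 negative, the median being -0.16 (0.47 when restricted), and 1 passed. That was Alox12e, an epidermal lipoxygenase, which fell to 11.4 and 4 CPM with imiquimod, against 68.6 and 38.4 CPM with Vaseline (-2.86, edgeR adjusted p = 0.0202). Without any 1 of the 4 libraries Alox12e was no longer called, with adjusted p from 0.0613 to 1.00. Of 23 transcription factors of terminal differentiation 7 were positive and 16 negative and 0 passed, and the median was -0.30 (0.34 when restricted). The smallest p was that of Ahr, the aryl hydrocarbon receptor, with 134 and 70.2 CPM with imiquimod and 165 and 333 CPM with Vaseline (-1.29, edgeR adjusted p = 0.425). Of 14 S100 genes of the same complex 5 were positive and 9 negative, the median being -0.67 (-0.05 when restricted), and 1 passed. That was S100a8, a subunit of calprotectin, which rose to 16.2 and 48.1 CPM with imiquimod, against 0.774 and 9.22 CPM with Vaseline (2.69, edgeR adjusted p = 0.0193). The call of S100a8 held without imiquimod 1 (adjusted p = 0.0456) and without Vaseline 2 (0.0420) and not without either other library. It was also lost with DESeq2 (0.108), RLE factors (0.234), library totals (0.211), no filter (0.496), edgeR on genes above background (0.430) and the replicate block (0.705).

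Levels of cell type markers are given beside those of the envelope genes. In the lists of Langerhans cell, basal, activated, inner root sheath, T cell and melanocyte markers 0 genes passed in either direction by the edgeR quasi-likelihood test. Over all genes tested 0.0634% were higher and 0.137% lower, and 60.6% had a positive log2 fold change. The summed level of 11 Langerhans cell markers was 9479 and 7796 CPM with imiquimod and 25440 and 66840 CPM with Vaseline, and all 11 had negative fold changes. The 7 basal keratinocyte markers summed to 15020 and 3856 CPM with imiquimod and 14590 and 17540 CPM with Vaseline. The 8 suprabasal markers summed to 1997 and 915.7 CPM against 4750 and 4232 CPM, each with a negative value, and Krt77 fell to 46.4 and 12.1 CPM with imiquimod, against 460 and 228 CPM with Vaseline (log2 fold change -3.58, edgeR adjusted p = 0.0415), a call lost without any 1 library (0.0753 to 1.00). The markers of activated keratinocytes, Krt6a, Krt6b, Krt16, Krt17, Stfa1, Il36a, Defb4 and Defb14, summed to 1407 and 403.7 CPM with imiquimod and 333.8 and 730.3 CPM with Vaseline. Of these, 6 were tested and 6 were positive, and Defb4 had no count in any library. Neutrophil markers summed to 65.2 and 233.9 CPM with imiquimod and 8.69 and 46.5 CPM with Vaseline, with 5 of 5 positive. The 6 inner root sheath keratins summed to 9.84 and 13 CPM against 11.3 and 4.16 CPM, the 6 T cell markers to 148.2 and 119.1 CPM against 256.4 and 252.0 CPM, and the 4 melanocyte markers to 12.8 and 15.5 CPM against 13 and 8.72 CPM. Of 5 fibroblast markers, at 17.8 and 42.3 CPM against 30.0 and 132.7 CPM, Col3a1 fell to 2.56 and 6.98 CPM with imiquimod, against 6.86 and 51.3 CPM with Vaseline (-2.53, edgeR adjusted p = 0.0408). Col3a1 was called without Vaseline 1 (0.00628) and not without any other library, and its log2 fold change without Vaseline 2 was -0.53. The cornified keratinocyte markers, which are the envelope genes Sprr2d, Sprr2e, Sprr2f, Sprr2h and Cdsn themselves, summed to 56.4 and 59.3 CPM with imiquimod and 9.13 and 19.9 CPM with Vaseline. As members of the set they are no separate measure of cornified keratinocytes. Of the 47 envelope genes tested, 40 had a positive log2 fold change and 7 a negative one, Flg (-0.77), Sprr2a1 (-0.83) and Sprr1a (-0.21) among them. The calls of Krt77 and Col3a1 were also lost with RLE factors, library totals, no filter, edgeR on genes above background and the replicate block, as was that of Alox12e. The part of these cell types in the levels of envelope genes was not tested.

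The promoters of Sprr2 genes are shown because these genes lie close together and several had both Vaseline libraries below both imiquimod libraries. The stretches shown are the 250 bases before the annotated start in RefSeq (GRCm38.p6), plus strand, of the 4 Sprr2 genes that rose in the DESeq2 fit and of Sprr2a1. Capitals mark the AP-1 motif TGANTCA and the TATA box TATAAA, searched on both strands.
Sprr2d, chr3:92338890-92339139: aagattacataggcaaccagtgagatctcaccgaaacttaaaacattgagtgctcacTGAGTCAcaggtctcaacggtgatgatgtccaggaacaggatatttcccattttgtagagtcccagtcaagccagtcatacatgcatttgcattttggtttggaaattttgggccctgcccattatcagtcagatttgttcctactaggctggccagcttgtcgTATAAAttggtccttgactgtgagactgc
Sprr2e, chr3:92351893-92352142: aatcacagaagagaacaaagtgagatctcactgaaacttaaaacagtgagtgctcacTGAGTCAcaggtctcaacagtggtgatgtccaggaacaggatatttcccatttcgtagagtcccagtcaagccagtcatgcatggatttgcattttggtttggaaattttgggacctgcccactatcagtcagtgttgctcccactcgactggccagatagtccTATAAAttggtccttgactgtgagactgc
Sprr2f, chr3:92364937-92365186: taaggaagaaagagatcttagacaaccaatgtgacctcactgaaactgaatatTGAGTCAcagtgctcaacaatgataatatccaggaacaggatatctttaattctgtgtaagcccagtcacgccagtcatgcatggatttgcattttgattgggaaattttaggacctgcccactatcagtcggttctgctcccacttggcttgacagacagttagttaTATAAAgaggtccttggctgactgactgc
Sprr2h, chr3:92385435-92385684: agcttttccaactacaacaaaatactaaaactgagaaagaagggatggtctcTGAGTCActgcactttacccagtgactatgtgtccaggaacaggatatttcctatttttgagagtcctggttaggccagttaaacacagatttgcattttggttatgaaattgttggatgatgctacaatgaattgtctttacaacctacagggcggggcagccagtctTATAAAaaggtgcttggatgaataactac
Sprr2a1, chr3:92215585-92215834: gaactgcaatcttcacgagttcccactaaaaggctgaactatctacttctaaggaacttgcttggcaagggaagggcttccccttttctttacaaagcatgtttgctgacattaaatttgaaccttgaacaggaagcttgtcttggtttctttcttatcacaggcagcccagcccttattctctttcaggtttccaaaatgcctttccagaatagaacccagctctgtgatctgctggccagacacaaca
In Sprr2d, Sprr2e, Sprr2f and Sprr2h the AP-1 match is TGAGTCA and begins between positions -198 and -193 from the start, and the TATA box begins at -29 in each. The Sprr2a1 stretch holds neither. It ends at 92215834, past the GENCODE start of that gene at 92215799, so RefSeq and GENCODE place its start differently. The other stretches shown end just before the GENCODE gene start, so the Sprr2a1 window may not be a comparable one. Stretches of 300 bases (250 before and 50 after the start) were aligned, and identity was taken over bases aligned without a gap. Sprr2d was 88.0% identical to Sprr2e over 300 such bases and 78.7% to Sprr2f over 287. It was 65.4% identical to Sprr2h over 292 and 44.5% to Sprr2a1 over 272. AP-1 and TATA motifs were each found in the same 7 of 10 Sprr2 promoters in the table (Sprr2b, Sprr2d, Sprr2e, Sprr2f, Sprr2h, Sprr2i and Sprr2k), and neither in the 3 Sprr2a promoters. Both motifs were also present in Sprr1a, Sprr1b, Ivl, Lor and Flg, which were not called in the DESeq2 fit. Crnn and Rptn, which were not in that fit, held both as well. Of the 7 Sprr2 genes with both motifs, Sprr2i and Sprr2k were not called in the DESeq2 fit and Sprr2b was not in it. Neither motif was present in Cdsn or Tgm1, which were called there. A relation between motifs and levels was not tested.

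Promoters of 45 of the 49 genes were in the RefSeq table. TGANTCA was present in 15 of the 45, in 0 of 20 Lce promoters and in 9.0% of the promoters of 27025 genes. TATAAA was present in 21 of the 45, in 4 of 20 Lce promoters and in 15.7% of all. The STAT motif TTCNNNGAA was present in 5 of the 45 (Sprr2a3, Sprr2i, Lce1l, Tgm1 and Cdsn), or 11.1%, and in 9.6% of all. The interferon response element was matched in 1 of the 45, Tgm1, and in 4.0% of all. A match describes letters in this window and does not show binding.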

How the data were processed

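RNA was extracted with a DirectZol MicroPrep kit and cDNA libraries came from a stranded SMARTer kit for very small amounts of total RNA, per the labels' protocols. Whole-number read counts per gene for 4 libraries were deposited by the authors in 1 table. Trimmomatic, HISAT2, SAMtools and StringTie with build GRCm38 are named in the submitters' processing notes, without versions. The strand setting and the handling of reads that map to several genes are not given in the sources used here.

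Groups came from the labels. The counts were tested with edgeR 4.0.16 in R 4.3.3 (quasi-likelihood, TMM factors of 1.05 and 1.66 for imiquimod and 0.955 and 0.598 for Vaseline, filterByExpr with a minimum count of 10 and total of 15), with Benjamini-Hochberg adjustment over 39439 genes and a threshold of 0.05. Printed CPM values are TMM-normalised, except the envelope gene totals and the background, which use library totals. The biological coefficient of variation was 0.607. DESeq2 1.42.0 and limma 3.58.1 served as alternatives, and the test was checked on simulated data. The DESeq2 fit of genes at 5 times the background or more, the family sums and the ratios to Sprr2a and Hrnr were chosen after values were seen. The members, gene lists and tests were chosen with earlier results of these data known. Named genes were the cornified markers, the non-Sprr and non-Lce members, other members averaging at least 1 CPM or at an unadjusted p under 0.05, and from each list the genes called or of smallest p; Sprr2c-ps, Sprr3 and Sprr4 were added.

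Shared words of 50, 75 and 100 bases and coding sequences came from GENCODE 21 (mouse), aligned with MAFFT 7.526, and 55227 of 55487 genes matched it by ID. Promoters came from RefSeq. Replicate numbers were not taken to pair libraries, since deviations of same-numbered libraries correlated at -0.331. Alternatives covered scaling, tool, filter, replicate blocks and leaving out each library. Proteins were not used here.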

Additional observations from a re-analysis of the deposited data

How the results depend on the processing

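Among the 33 named envelope genes, 22 kept the sign of their log2 fold change in each of the 17 settings that fitted them. Sprr2d, Sprr2e, Sprr2f, Sprr2h, Cdsn and Tgm1 were among the 22. So were Sprr2b, Lce1c, Lce3c, Lce3d and Lce3f, which had to be higher on library totals because they passed the filter through the imiquimod libraries alone. DESeq2 fits of genes above background that left out 1 library were not among the 17. The number of envelope genes called higher was 0 as reported, 3 with upper-quartile factors (Sprr2d, Sprr2h and Cdsn), 2 with limma-voom (Sprr2d and Sprr2h), 1 with the stricter filter (Sprr2h), and 6 with DESeq2 on genes above background. It ranged from 0 to 4 when a library was left out of edgeR, and from 1 to 9 when one was left out of DESeq2 on genes above background, where 0 to 1 were lower. Those called without Vaseline 1 in edgeR were Sprr2b, Lce1k, Lce3c and Lce3f, none of which had a count in Vaseline 2. Calls over all genes were also most numerous without Vaseline 1.

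Over all genes, 25 were higher and 54 lower as reported. Under RLE factors the counts were 17 and 14, under upper-quartile scaling 41 and 56, 8 and 5 with library totals alone, 6 and 669 with DESeq2, 41 and 136 with limma-voom, and 27 and 124 with the stricter filter. They were 0 and 0 with no filter or with genes above background in edgeR, 3 and 5 with the older quasi-likelihood form, and 99 and 155 with DESeq2 on genes above background. Leaving out a library gave 8 to 2959 higher and 0 to 317 lower in edgeR, with the highest numbers without Vaseline 1. In DESeq2 on genes above background it gave 351 and 520 without imiquimod 1, 441 and 752 without imiquimod 2, 81 and 27 without Vaseline 1, and 27 and 7 without Vaseline 2. With a replicate block 1 gene was higher and 0 lower, and with the crossed pairing of the numbers, added after the data were seen, 0 and 0; no envelope gene was called under either.

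The median log2 fold change of envelope genes was 1.13 as reported, 2.00 with library totals alone, 1.78 on genes above background and 1.75 there with DESeq2. It ranged from 0.56 to 1.31 without 1 library in edgeR and from 1.16 to 2.09 in DESeq2 on genes above background, with 1.764 without Vaseline 2. The median over all genes moved with the scaling, at 0.41 as reported, 0.16 under RLE scaling, 0.76 under upper-quartile scaling and 1.30 with library totals. Envelope genes sharing more than 10% of their words numbered 23 at 50 bases, 9 at 75 and 7 at 100.

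Several directions turned, and the cause was not tested. With library totals alone the log2 fold changes were 0.25 for Flg, 0.43 for Sprr1a, 0.61 for the Sprr1 sum, 0.16 for Sprr2a1, 0.24 for Sprr2a2, 0.16 for Sprr2a3 and 0.20 for the Sprr2a sum. On genes above background they were 0.18 for Flg, 0.40 for Sprr1a, 0.57 for the Sprr1 sum, 0.076 for Sprr2a1, 0.158 for Sprr2a2 and 0.114 for the Sprr2a sum, and with DESeq2 there 0.144, 0.367, 0.539, 0.034, 0.117 and 0.073 for the same. Upper-quartile factors gave 0.09 for Sprr1a and 0.23 for the Sprr1 sum, and the stricter filter 0.059 for the Sprr1 sum. RLE factors gave -0.03 for Flg2, -0.15 for Sprr1b and -0.20 for Tgm3, and DESeq2 -0.058, -0.14 and -0.169. Tgm3 was also -0.31 with limma-voom, -0.063 with no filter, -0.37 with the replicate block and -0.39 with the crossed pairing. Without 1 library the log2 fold changes ranged from -1.65 to 0.79 for Tgm3, -1.54 to 1.33 for Ivl, -0.67 to 0.86 for Flg2, -0.13 to 1.69 for Lor, -0.001 to 0.84 for Tchh, -1.16 to 0.35 for Sprr1a, -0.26 to 0.48 for Sprr1b, -0.77 to 0.34 for the Sprr1 sum, -1.50 to 0.18 for the Sprr2a sum, -1.54 to 0.16 for Sprr2a1 and -1.48 to 0.26 for Sprr2a2. A group left with 1 library was assumed to vary like the other. Depth limits the members with the fewest counts over the 4 libraries, such as Lce3b (15), Sprr4 (21) and Sprr2c-ps (40).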
